A study of Mus musculus with 2 samples.

Results

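Mesp1 encodes a basic helix-loop-helix transcription factor of the earliest mesoderm. The gene was chosen on measured values of these libraries, for its difference between the groups and its spread among knockout cells, so its levels and the genes that go with it are described here with no test. It is 1 gene of the 27998 listed, and its symbol names 1 row in each library's table.

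In the embryo Mesp1 is switched on for a short time as epiblast cells pass through the primitive streak, and its descendants form the heart and other anterior mesoderm. The T-box factors T (Brachyury) and Eomes, together with Wnt and Nodal signals, are known regulators of the gene. MESP1 binds DNA with E-protein partners, Id proteins hold such partners back, and its neighbour Mesp2 is a paralog best known from somite formation.

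The data are 10x Genomics droplet libraries of AB2.2 mouse embryonic stem cells, an established line, taken after 4 days of differentiation toward mesendoderm, the shared precursor of mesoderm and endoderm. The PHD2-KO library came from cells that lack PHD2, the product of Egln1, a prolyl hydroxylase that senses oxygen, and the WT library from wild type cells under the same protocol. Each group was 1 library, so differences have no replicate check, and neither the number of clones nor the altered part of Egln1 is stated in the sources used here. After filtering, 6927 PHD2-KO cells (median 20999 unique molecular identifiers, UMIs) and 8515 WT cells (median 20434 UMIs) were kept. Levels are given in CPM, the UMIs of a gene summed over cells, per 1e6 UMIs of those cells. Egln1 itself stood at 13.6 CPM in PHD2-KO cells and 18.2 CPM in WT cells, which does not check the label without knowing which part was altered. A total of 16 kept barcodes occurred in both libraries, and 0 of them were WT cells with a Mesp1 UMI. Intervals are 95% and cover counting error only.

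Mesp1 (ENSMUSG00000030544) lies at chr7:79792241-79793788 on the minus strand of mm10 and has 2 exons. Exon 1 (chr7:79792865-79793788) holds 261 bases of 5′ UTR and 663 coding bases, and exon 2 (chr7:79792241-79792591) holds 66 coding bases before the stop codon and the 3′ UTR. The RefSeq promoter window of GRCm38.p6 (250 bases before to 50 after the RefSeq start, chr7:79793541-79793840, minus strand) was searched on both strands for letters bound by T-box, TCF/LEF, SMAD and HIF factors. The RefSeq start (79793590) lies 198 bases inside the GENCODE gene, whose start is 79793788, so the matches near the RefSeq start are in the annotated 5′ UTR. The stretches with matches are shown because T-box and TCF/LEF factors are the known inputs to this gene; capitals mark the match.

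Mesp1 T-box core, chr7:79793805-79793834, minus strand: ctaataaatgaAGGTGTaccctaagcctag
Mesp1 TCF/LEF, chr7:79793603-79793632, minus strand: gctcgagccggCTTTGATatgctgatgaat
Mesp1 T-box, chr7:79793567-79793596, minus strand: aggggcccgctTCACACCtagggctcagga
Mesp2 T-box core, chr7:79810745-79810774, plus strand: ggtcagaatccACACCTctgcaaatgggcc

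The first match is the T-box core AGGTGT, 233 bases before the RefSeq start and 35 before the GENCODE start. The TCF/LEF letters CTTTGAT begin 31 bases before the RefSeq start. The longer T-box letters GGTGTGA occur on the other strand, 5 bases after the RefSeq start, and a second core match overlaps them. Of 32851 windows of the same length, 13.7% held the core, 3.73% the TCF/LEF letters and 3.98% the longer T-box letters. The HIF core ACGTG (in 19.6% of windows) and the SMAD palindrome GTCTAGAC (in 0.213%) were not among the letters of the Mesp1 window. The Mesp2 window held 1 core match, 29 bases after its start. The matches are letters in a window and were not tested as binding sites.

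Mesp1 gave 34787 UMIs in PHD2-KO cells (220.5 CPM, 218 to 223), against 81 UMIs in WT cells (0.402 CPM, 0.319 to 0.4997), a ratio of 549 (441 to 691). At least 1 UMI was found in 2764 PHD2-KO cells (39.9%), against 68 WT cells (0.799%). With each cell thinned to 14000 UMIs (646 PHD2-KO and 777 WT cells were shallower and dropped), the shares were 32.9% of 6281 PHD2-KO cells (31.8 to 34.1) and 0.517% of 7738 WT cells (0.370 to 0.703). The groups therefore differed both in how many cells gave a UMI and in how many UMIs a cell gave.

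The PHD2-KO cells did not share this transcript evenly. After thinning, 4213 cells had no Mesp1 UMI, 1060 had 1 or 2, 217 had 3 to 5, 179 had 6 to 10, 250 had 11 to 20 and 362 had 21 or more, up to 102. Of the 1060 cells, 894 had 1 UMI and 166 had 2, and beyond that a long tail of cells followed, in which the bins widen with the count. The richest 10% of cells (628 cells, with 10 UMIs or more) held 83.7% of all thinned Mesp1 UMIs. The 612 cells with 11 or more (9.74%, 9.02 to 10.5) had a median of 24 UMIs and quartiles of 16 and 34. In WT, 0 of 7738 thinned cells had 11 or more, for which 3 counts would have been a share of 0.0388%, the limit that a count of 0 allows.

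**Figure D1:**
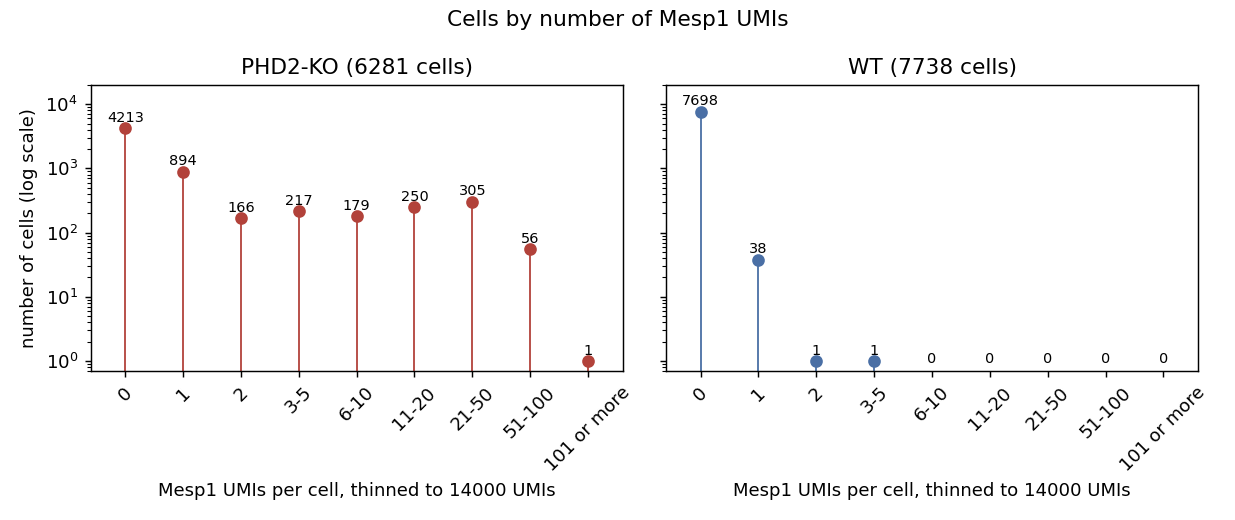
Number of cells (log scale) by number of Mesp1 UMIs per cell after thinning to 14000 UMIs, in PHD2-KO cells (left) and WT cells (right); the number over each point is its count of cells. The bins widen with the count; in PHD2-KO they still hold 305 cells at 21 to 50 UMIs and 56 at 51 to 100, while 38 of the 40 WT cells with any UMI have 1.

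The spread was part of how the gene was chosen, so its size is given as a description only. The variance of thinned UMIs over PHD2-KO cells was 27.3 times the mean for Mesp1, and a median of 1.19 times over 269 genes whose mean lay between 2.58 and 4.03 UMIs per cell (Mesp1 3.22). High values among these also occurred for the keratin Krt18 (18.7), S100a6 (17.8) and Sfn (11.4). A gene among these 269 was found in a median of 94.0% of cells, against 32.9% for Mesp1.

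A low Mesp1 count was found in every PHD2-KO cluster. Clusters were built on both libraries without Mesp1 as a clustering gene, and were named only from marker genes. Naive pluripotent-like cells were named from Zfp42, Klf2, Tfcp2l1 and Dppa5a, while other naive markers, Nanog among them, did not meet the naming rule. They are assumed to lack Mesp1, which was not tested. Among these cells in PHD2-KO, 65 of 357 thinned cells (18.2%, 14.3 to 22.6) had a Mesp1 UMI, at a median depth of 24454 UMIs before thinning. Of the same cells 0.840% had 3 or more, and 1 cell (0.280%) had 11 or more. Over all thinned PHD2-KO cells 16.9% had a count of 1 or 2. The 18.2% in this class counts any UMI and includes the 0.840% with 3 or more. A count of 1 or 2 was thus about as frequent in this class, so a single cell with such a count is not read as expressing Mesp1. As a group the cells with 1 or 2 UMIs are described further on. In WT naive pluripotent-like cells (median depth 21996 UMIs) the share was 2 of 320 (0.625%, 0.0758 to 2.24), so the WT share of 0.517% over all cells was not above this one. The level of Mesp1 in naive pluripotent-like PHD2-KO cells was 9.24% of its level over all PHD2-KO cells (7.99 to 10.6). The same percentage was 9.04 for Lhx1 and 7.81 for Cyp26a1, but 14.7 for Gsc, 27.1 for T, 29.4 for Snai1 and 32.8 for Eomes. The part of free RNA in these values was not tested, and levels were not corrected for it.

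High counts were gathered in 1 cluster. A nascent mesoderm-like cluster of 1074 PHD2-KO cells and 0 WT cells (up to 0.0352% by the same limit) was named from Mesp2, Cyp26a1, Gata6, Pmp22, Lhx1, Lefty2 and Pdgfra. Of these markers, Mesp2 has uncertain counts in Mesp1-rich cells, as described further on, and the name, which needs 3 markers, does not depend on it. The cluster stood at 1071 CPM and held 76.4% of the PHD2-KO Mesp1 UMIs. Of its 1015 thinned cells, 85.0% had a UMI, 71.7% had 3 or more, and 496 (48.9%, 45.7 to 52.0) had 11 or more. Within a cluster defined by nascent mesoderm genes, about as many cells lay under 11 UMIs as over it.

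The other clusters stood lower, by differing amounts. The primitive streak-like clusters 1 and 8 stood at 82.4 and 74.9 CPM, and 3.14% and 3.02% of their thinned cells had 11 or more UMIs. Cluster 1 was named from T, Mixl1, Fgf8, Evx1 and Sp5, and its first leading genes were T, Apln and Foxb1. Cluster 8 (1806 PHD2-KO cells) was named from T, Fgf8 and Sp5 only, and its first leading genes were Sprr2a3, Apln and Hoxb1. An unnamed PHD2-KO cluster led by Ccl20, Tac1 and Krt19 stood at 39.7 CPM, with 1.16% of cells at 11 or more. Haemato-endothelial-like PHD2-KO cells, named from Lmo2, Etv2, Tal1 and Kdr, stood at 30.3 CPM, with 0 of 86 at 11 or more (up to 3.49%). An unnamed cluster of 167 PHD2-KO cells led by Upp1 and Pdzk1ip1, and shallow at a median of 10612 UMIs, stood at 415 CPM, and 18.2% of its 55 thinned cells (9.08 to 30.9) had 11 or more. In WT no cluster passed 0.792 CPM, and 28 of the 81 UMIs came from cluster 7, whose leading genes were Cryab, Acta2 and Acta1. Clusters that hold cells of mostly 1 library may be that library and not a cell type.

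**Figure D2:**
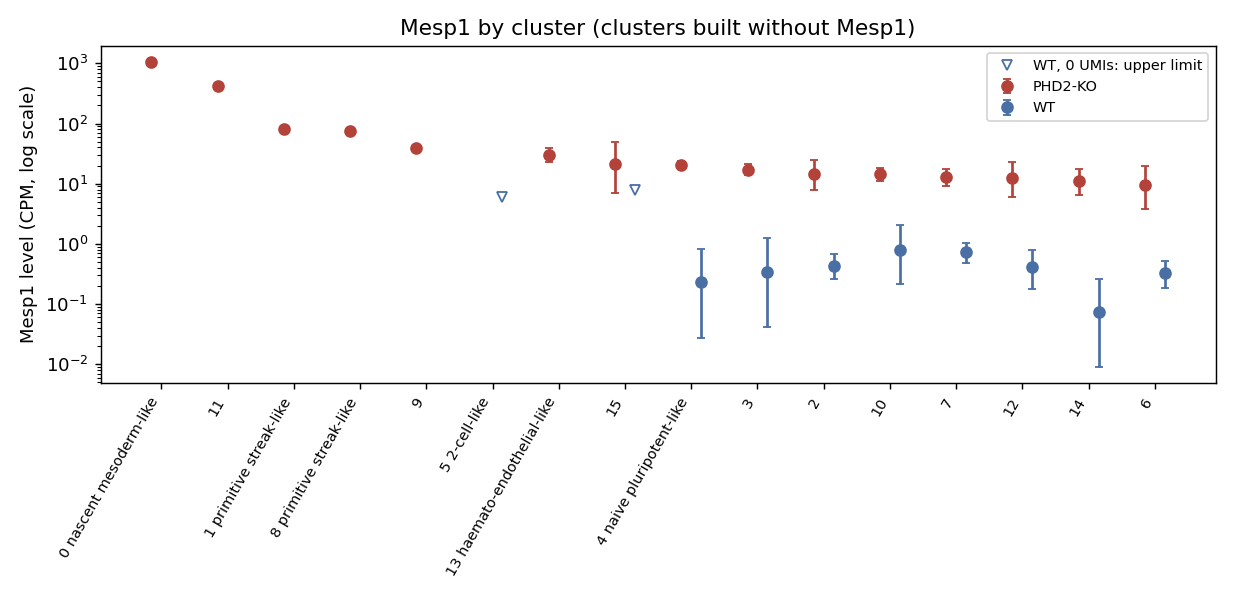
Mesp1 level (CPM, log scale, with 95% counting intervals) in each cluster of at least 20 cells, for PHD2-KO cells (left point of each pair) and WT cells (right point); open triangles are upper limits where no UMI was read. The nascent mesoderm-like cluster stands at 1071 CPM, the PHD2-KO naive pluripotent-like cells at 20.4 CPM, and every WT level drawn as a point lies under 1 CPM.

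Of the known T-box inputs, Eomes went with Mesp1 across PHD2-KO cells and T did not. Mixl1, which is not among the regulators named above, also went with Mesp1. In the order of Mesp1 UMIs (0, 1 to 2, 3 to 5, 6 to 10, 11 to 20, and 21 or more), the share of cells with a T UMI was 81.0, 83.7, 82.0, 83.2, 85.6 and 85.6%. The mean number of T UMIs was 4.56, 4.74, 4.67, 3.81, 3.73 and 3.46 in the same bins. T was thus present in most cells of every bin, and slightly lower in the richest. T was at 247 CPM in cells with 21 or more Mesp1 UMIs, against 326 CPM in cells with 0, and its rank correlation with Mesp1 over 6281 cells was -0.02. In the same order of bins, the share of cells with an Eomes UMI was 25.8, 33.8, 65.9, 71.5, 75.2 and 77.9%. For Mixl1, a homeobox factor of the streak, it was 28.2, 37.4, 76.5, 84.4, 88.8 and 85.6%. Both shares stepped up between 1 to 2 and 3 to 5 Mesp1 UMIs and changed little above 6.

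Read the other way, T gave a hump and the other factors a slope. Of PHD2-KO cells with 0, 1 to 2, 3 to 5, 6 to 10, 11 to 20 and 21 or more T UMIs, 7.79, 12.2, 12.2, 8.36, 4.26 and 2.22% had 11 or more Mesp1 UMIs. Of cells with 0, 1 to 2, 3 to 5 and 6 to 10 Eomes UMIs, the shares were 3.47, 16.2, 36.8 and 41.1%. Of cells with 0, 1 to 2, 3 to 5, 6 to 10 and 11 to 20 Mixl1 UMIs, they were 2.08, 14.96, 30.03, 35.2 and 55.6%. Mesp1-rich cells were therefore less frequent among the cells with most T (28 of 658 at 11 to 20 UMIs) than among those with 1 to 5, while the shares were larger in each bin of more Eomes or Mixl1, with overlapping intervals between neighbours at the top. These are cells of 1 library and the shares have counting intervals only.

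**Figure D3:**
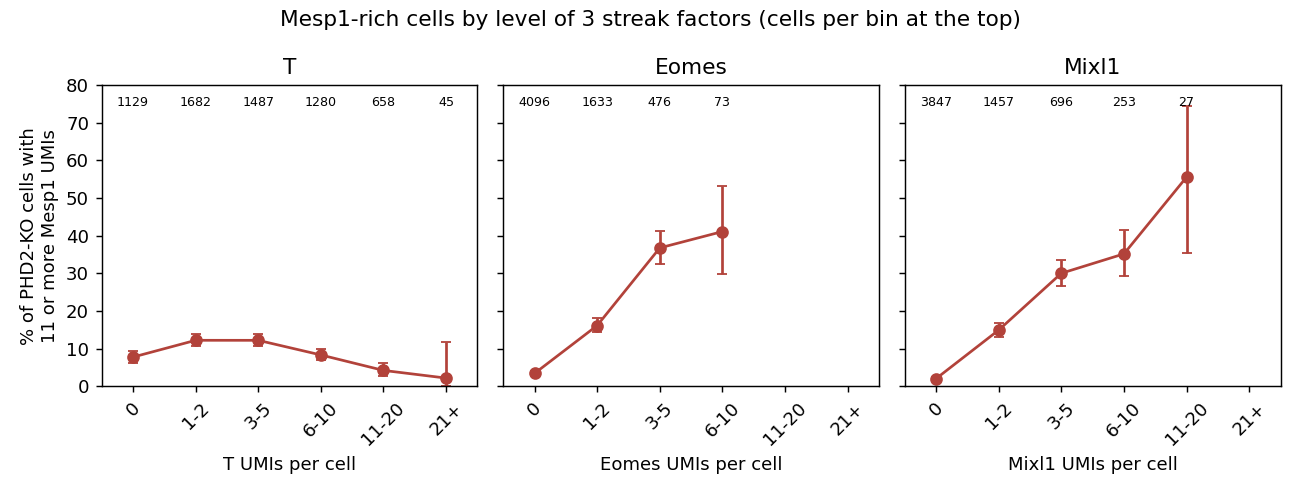
Percentage of PHD2-KO cells with 11 or more Mesp1 UMIs (y axis, with 95% exact binomial intervals) by the number of T, Eomes or Mixl1 UMIs in the same cell (x axis), all thinned to 14000 UMIs; cells per bin are printed at the top, and 3 cells with more Eomes and 1 with more Mixl1 are not drawn. T peaks at 12.2% and ends at 2.22%, while Eomes reaches 41.1% and Mixl1 55.6%.

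Of the 12 genes listed as upstream factors, 11 reached 5 CPM in either the bin of 21 or more Mesp1 UMIs or the bin of 0. At a difference of at least 1.5-fold, 6 of the 11 were higher (Eomes, Mixl1, Tbx6, Lef1, Smad1 and Zic2), 0 lower, and the others, T, Tcf7, Smad2 and Smad4 among them, lay between. Where a member reached 5 CPM in only 1 bin, as Tbx6 did, this minimum fixed the direction of its difference but not the size. Of the 10 that reached 5 CPM in both bins, 5 were higher. Over all 8688 genes measured in these bins, 400 (4.6%) were higher and 1193 (13.7%) lower. The interval of the ratio lay wholly past 1.5-fold for 206 and 504 of them, since 362 cells give few UMIs for a gene near 5 CPM. The median log2 ratio of all genes was -0.05. Each list counted below in these bins is to be read beside the all-gene shares of 4.6% higher and 13.7% lower. Of 20 signalling genes of the streak 16 were measured, 7 higher and 5 lower, with a median log2 ratio of 0.43; of the 12 at 5 CPM in both bins, 6 were higher and 2 lower. Tdgf1 (Cripto), the Nodal co-receptor, was at 793 CPM in cells with 21 or more Mesp1 UMIs, against 237 CPM in cells with 0. Nodal itself was 4.01-fold lower (19.3 CPM, against 77.5 CPM). Its feedback inhibitors parted: Lefty2 was 4.91-fold higher (50.3 CPM, against 10.2 CPM) and Lefty1 6.10-fold lower (8.09 CPM, against 49.3 CPM). Wnt5a (7.82-fold), Dkk1 (4.52-fold) and Rspo3 (3.48-fold) were higher, Wnt8a was 2.84-fold lower, and Fgf8 lay between (189 CPM, against 172 CPM).

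The genes most like Mesp1 were ranked by Spearman correlation over the 6281 thinned PHD2-KO cells, among 6174 genes of at least 10 CPM. These cells share a library and each gene is sparsely counted, so the values order the genes and carry no p. The 10 highest were Lhx1 (0.481), Cyp26a1 (0.466), Fn1 (0.406), Mixl1 (0.404), Upp1 (0.398), Snai1 (0.392), Tdgf1 (0.386), Gsc (0.377), Efna3 (0.353) and Eomes (0.351). The next was Dlc1 (0.349), the median gene was at -0.00194, and 19 genes passed 0.3.

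Lhx1, a LIM homeobox factor of the streak and early mesoderm, was at 222 CPM (209 to 235) in cells with 21 or more Mesp1 UMIs, against 6.48 CPM (5.84 to 7.16) in cells with 0, a ratio of 34.2 (30.4 to 38.5). In the order of bins it stood at 6.48, 20.96, 75.7, 134, 187 and 222 CPM, higher in each bin than in the one before. Cyp26a1, which breaks down retinoic acid, stood at 7.26, 16.0, 71.8, 106, 117 and 172 CPM. Snai1, the repressor of E-cadherin in epithelial-mesenchymal transition, stood at 4.36, 8.02, 25.02, 40.3, 53.7 and 74.2 CPM. These 3 went on climbing within the richest bins, where Fn1 (fibronectin) was flat at 282, 274 and 279 CPM and Gsc (goosecoid) at 74.2, 78.9 and 77.2 CPM. Upp1, a uridine phosphorylase, was at 505 CPM in cells with 21 or more, against 97.2 CPM in cells with 0, and Efna3, an ephrin ligand, at 89.8 CPM, against 12.8 CPM.

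By the ratio of the richest bin to the bin of 0, among genes of at least 50 CPM in one of them, Fgf3 came first at 42.2 (32.4 to 55.6), with 51.5 CPM against 1.22 CPM. After Lhx1, Cyp26a1 and Snai1 followed Gas1 (13.1-fold), a cell surface protein, Lmo1 (12.6-fold), a LIM-only factor, Dlc1 (11.2-fold), a GTPase-activating protein, Gsc (8.99-fold), Efna3 (7.03-fold) and Pcdh7 (6.30-fold), a protocadherin. The paralog Mesp2, under that minimum, was 47.8-fold higher (34.6 to 67.2), at 38.1 CPM against 0.797 CPM. Its transcript shares a run of 42 bases with that of Mesp1, so Mesp2 counts in Mesp1-rich cells are uncertain. The share of cells with a Mesp2 UMI was 1.12, 1.98, 5.07, 9.497, 18.0 and 32.6% in the order of bins.

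**Figure D4:**
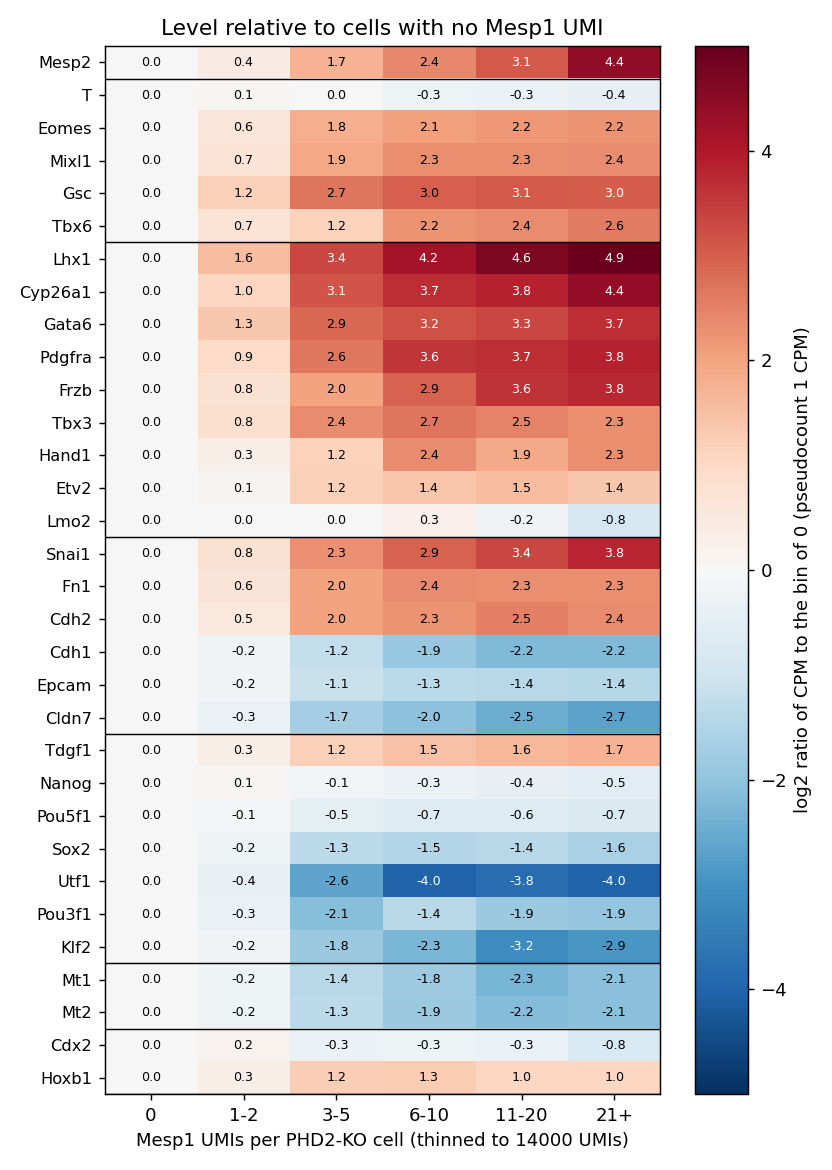
log2 ratio of a gene's level in each bin of Mesp1 UMIs to its level in the bin of 0 (pseudocount 1 CPM, which understates low genes), for genes of 7 groups chosen after their values were seen, in PHD2-KO cells thinned to 14000 UMIs. Mesp2, Lhx1 and Cyp26a1 pass 4 in the richest bin, T stays near 0, and Utf1 is close to -4. Mesp2 counts are uncertain there, since its transcript shares a run of bases with that of Mesp1.

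All measured genes of nascent mesoderm were higher. Of 17 such genes beside Mesp1, 16 were measured and 16 were higher in cells with 21 or more Mesp1 UMIs than in cells with 0, with a median log2 ratio of 2.41. Of these, 8 reached 5 CPM only in the richest bin, which fixed their direction, and the other 8 reached it in both. The listed gene that was not measured, Bmp7, was not higher, at 3.55 CPM against 4.05 CPM. Pdgfra, a growth factor receptor of early mesoderm, was at 22.5 CPM against 0.644 CPM, and Gata6, a zinc finger factor of heart and endoderm, at 32.0 CPM against 1.54 CPM. Frzb, a secreted Wnt antagonist, was at 21.1 CPM against 0.627 CPM. Tbx3 was highest at 6 to 10 Mesp1 UMIs (46.7 CPM) and stood at 36.5 CPM in the richest bin, against 6.48 CPM in the bin of 0. Of 25 genes reported as Mesp1 targets or of the cardiac programme, 12 were measured and 12 were higher, 8 of them at 5 CPM only in the richest bin. The other 13 were under 5 CPM in both bins, 3 of them at 0 in the richest bin. Of 10 paraxial mesoderm genes 4 were measured, and Tbx6, Dll1 and Dll3 were higher while Tcf15 lay between. Tbx6 and Dll1 reached 5 CPM only in the richest bin, which fixed their direction.

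Of 11 blood and endothelial genes 3 were measured, and only Etv2 reached 5 CPM in both bins. Kdr reached it only in the richest bin and Lmo2 only in the bin of 0, which fixed the direction of both. Etv2, a master factor of blood and endothelium, was at 108 CPM in cells with 21 or more Mesp1 UMIs, against 41.3 CPM in cells with 0. Kdr, a VEGF receptor, was highest at 11 to 20 Mesp1 UMIs (17.7 CPM) and stood at 8.48 CPM in the richest bin, against 1.36 CPM. Lmo2, a partner of blood factors, was 2.01-fold lower (1.26 to 3.43), with 3.55 CPM against 7.15 CPM, on few UMIs. The share of cells with an Lmo2 UMI was 11.2% at 6 to 10 Mesp1 UMIs and 4.14% at 21 or more, against 6.50% at 0. Of 10 genes of definitive endoderm and anterior streak 3 were measured: Gsc was higher, Hhex lay between, and Trh was 9.85-fold lower (15.4 CPM against 152 CPM). Of the caudal and Hox genes 6 of 10 were measured, with Hoxb1, Hoxb2, Evx1 and Greb1 higher, and Cdx2 (9.67 CPM against 16.95 CPM) and Nkx1-2 (0.789 CPM against 5.44 CPM) lower; 3 of the 6 reached 5 CPM in both bins, of which 2 were higher and 1 lower.

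Cadherins and junction genes differed between the bins in opposite directions. Cdh2 (N-cadherin) was found in 14.8, 21.2, 46.1, 58.7, 60.8 and 60.5% of cells in the order of bins, and Cdh1 (E-cadherin) in 57.8, 53.9, 29.0, 21.8, 17.2 and 16.9%. The tight junction genes Cldn7 (20.7 CPM against 139 CPM) and Cldn6 (7.89 CPM against 54.2 CPM) and the polarity gene Crb3 (4.34 CPM against 40.2 CPM) were lower in cells with 21 or more Mesp1 UMIs than in cells with 0, as was the adhesion gene Epcam (103 CPM against 279 CPM). Of 18 genes of the epithelial-mesenchymal transition, 16 were measured, 7 were higher (the factors Snai1, Twist1 and Zeb2, with Cdh2, Cdh11, Fn1 and Itga5), 8 epithelial genes were lower (of 12 at 5 CPM in both bins, 4 higher and 7 lower), and Vim lay between (336 CPM against 332 CPM). The list's median log2 ratio of -0.47 averages over both directions.

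The 10 genes with the lowest correlation were the metallothioneins Mt2 (-0.353) and Mt1 (-0.330), then Mkrn1 (-0.322), Utf1 (-0.318), Cldn7 (-0.311), Epcam (-0.302), Bex1 (-0.287), L1td1 (-0.272), Chchd10 (-0.263) and Apoe (-0.261). Utf1, a chromatin factor of undifferentiated cells, stood at 123, 95.8, 19.1, 6.78, 7.71 and 6.71 CPM in the order of bins, 18.3-fold lower (13.1 to 26.4) in the richest bin than in the bin of 0. Of 8 E proteins, Id inhibitors and the paralog, 7 were measured. Id2, an inhibitor of helix-loop-helix factors such as MESP1, was 11.2-fold lower (7.67 to 16.98; 5.33 CPM against 59.5 CPM). The related Id1 (571 CPM against 529.96 CPM) and Id3, and the E proteins Tcf3, Tcf4 and Tcf12, lay between. By ratio the lowest genes also held Tpd52 (4.76-fold lower) and Wfdc2 (4.34-fold lower).

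Most pluripotency genes that passed 1.5-fold were lower, as were most of all genes that passed it. Over all 8688 genes measured, 4.6% were higher and 13.7% lower. Of 10 naive genes 6 were measured, 0 higher and 4 lower, at a median log2 ratio of -1.15: Klf2 (1.18 CPM against 15.6 CPM), Zfp42, Klf5 and Dppa5a were lower, and Nanog and Klf4 lay between; Klf2 reached 5 CPM only in the bin of 0. Nanog, a core pluripotency factor that the streak also expresses, was found in 34.3% of cells with 21 or more Mesp1 UMIs and in 40.1% of cells with 0. Of 9 formative epiblast genes 8 were measured, with Pou3f1, Utf1, Dnmt3a and Dnmt3b lower, Otx2, Lef1 and Zic2 higher, and Fgf5 between, at a median of -0.08. Of 10 general pluripotency genes 10 were measured, 6 lower and 2 (Sall4 and Tdgf1) higher, at a median of -1.14; of 8 at 5 CPM in both bins, 4 were lower and 2 higher. Sox2 was 3.29-fold lower (8.48 CPM against 27.9 CPM), Pou5f1 1.66-fold lower (73.2 CPM against 121 CPM) and Gdf3 28.7-fold lower on 2 UMIs in the richest bin (7.93 to 238).

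HIF target genes, whose activating factors PHD2 marks for degradation, showed no shared direction across the Mesp1 bins. Of 24 listed 20 were measured, with Ldha, Egln3 and Vegfa higher, Ddit4, Slc2a1, Slc2a3, Pdk1, Ankrd37 and Pfkp lower, and 11 between, at a median log2 ratio of 0.08; Pdk1 reached 5 CPM only in the bin of 0. Ldha, lactate dehydrogenase, was at 2226 CPM in cells with 21 or more Mesp1 UMIs, against 1389 CPM in cells with 0. All 12 S phase genes and all 12 G2 and M phase genes lay between, at medians of 0.06 and 0.05. Of the markers of other cell types, Nes of 4 neuroectoderm genes was lower, and Gata3 and Hand1 of 5 trophoblast genes were higher. Gata3 and Hand1 reached 5 CPM only in the richest bin, which fixed their direction. No visceral endoderm, feeder fibroblast or 2-cell-like gene reached 5 CPM. Of 10 dissociation stress genes 8 were measured, with Jun, Ier2 and Dusp1 lower. Beside these counts, 4.6% of all genes measured were higher and 13.7% lower.

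Depth and RNA quality moved little over the bins. In the order of bins, the median UMI count before thinning was 21892, 21596.5, 21886, 22231, 22182 and 21422.5, and the median mitochondrial share lay between 1.24 and 1.34%. The share of UMIs from chromosome 8 did move. It was bimodal in both libraries, and the share of cells in its lower mode was 39.9, 43.5, 65.9, 69.3, 74.0 and 71.3% in the order of bins. PHD2-KO cells of low chromosome 8 share had Mesp1 at 335 CPM, and 15.5% of 2853 thinned cells had 11 or more UMIs. PHD2-KO cells of high share had it at 121 CPM, and 4.93% of 3428 had 11 or more. Against WT cells of the same mode (0.684 CPM in low-share and 0.349 CPM in high-share cells), the ratios were 491 (324 to 783) and 348 (269 to 457). What part the chromosome 8 share has in these values was not tested. The share counts the UMIs of Mt1 and Mt2, which were lower in Mesp1-rich cells. How far these genes move cells between the modes was not tested.

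The genes that went with Mesp1 were largely shared between both modes. Of the 10 with the highest correlation in cells of low share, 8 were also among the 10 highest in cells of high share. Lhx1 was at 237 CPM in cells with 21 or more Mesp1 UMIs against 9.77 CPM in cells with 0 in the low-share mode, and at 183 CPM against 4.29 CPM in the high-share mode. Of the genes called above, Mt1, Mt2, Cdh1, Cdh11, Dlc1, Smad1, Klf2, Zfp42, Ankrd37 and Ier2 themselves lie on chromosome 8, so they are given within each mode. Their own UMIs count in the share that sorts the cells, so the modes are not an independent check on these genes. Mt1 was at 455 CPM against 1474 CPM among low-share cells and at 853 CPM against 3032 CPM among high-share cells. Mt2 was at 183 CPM against 577 CPM among low-share cells and at 297 CPM against 1138 CPM among high-share cells. Cdh1 was at 14.4 CPM against 62.3 CPM among low-share cells and at 15.1 CPM against 77.9 CPM among high-share cells. Each of these genes was thus lower in the Mesp1-rich cells of both modes. Dlc1 was at 63.1 CPM against 5.82 CPM among low-share cells and at 79.0 CPM against 6.21 CPM among high-share cells. Cdh11 was at 31.8 CPM against 3.18 CPM and at 48.1 CPM against 1.27 CPM, in the same order, and Smad1 at 73.1 CPM against 26.8 CPM and at 94.1 CPM against 27.5 CPM. Klf2 (1.11 CPM against 12.2 CPM, and 1.37 CPM against 17.8 CPM), Zfp42 (12.7 CPM against 24.7 CPM, and 22.0 CPM against 45.8 CPM) and Ankrd37 (7.20 CPM against 16.3 CPM, and 8.24 CPM against 20.6 CPM) were lower in both modes. Ier2 was at 82.2 CPM against 97.6 CPM among low-share cells, under 1.5-fold, and at 109.9 CPM against 165.9 CPM among high-share cells.

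**Figure D5:**
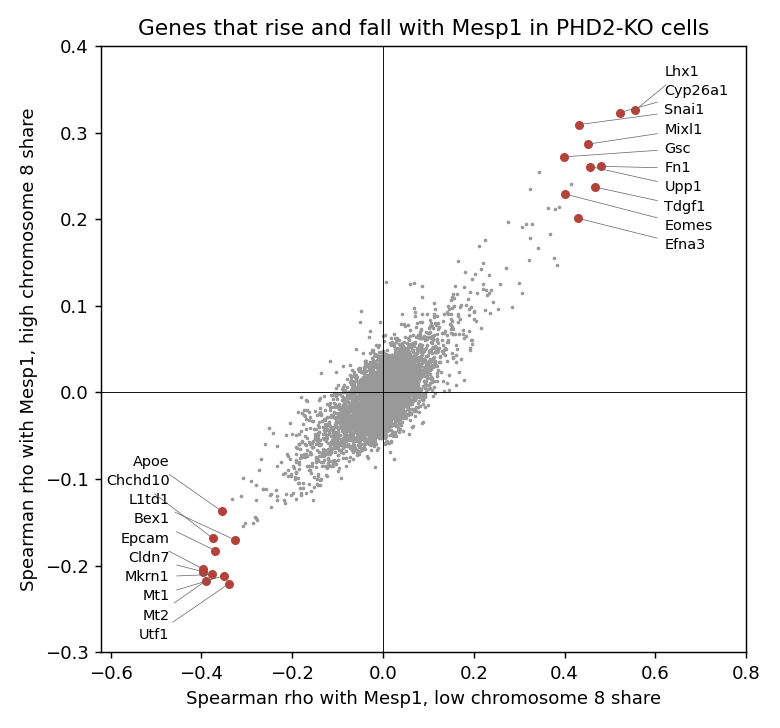
Spearman correlation of each gene with Mesp1 over PHD2-KO cells of low chromosome 8 share (x axis, 2853 cells) and of high share (y axis, 3428 cells), for 6174 genes of at least 10 CPM; red points are the 10 highest and 10 lowest over all cells. Lhx1 and Cyp26a1 are farthest out in both, at 0.555 and 0.522 in low-share and 0.326 and 0.323 in high-share cells.

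Cells with 1 or 2 Mesp1 UMIs differed from cells with 0 at few genes. Of 8584 genes measured, 36 (0.419%) were at least 1.5-fold higher and 11 (0.128%) at least 1.5-fold lower in cells with 1 or 2, with a median log2 ratio of -0.00. In this comparison the median log2 ratio was 0.77 over the 16 nascent mesoderm genes and 0.56 over the 12 reported target and cardiac genes that were measured in the richest bin against the bin of 0. Of the 16, 8 entered only because they reached 5 CPM in the richest bin, as did 8 of the 12, so these medians are not of unselected genes. The 36 genes that were higher included genes of the list above at smaller ratios, such as Lhx1 (20.96 CPM against 6.48 CPM) and Gsc (21.2 CPM against 8.58 CPM). At the other end, the 791 cells with 6 or more Mesp1 UMIs were ranked among themselves, and the correlations were weak. Lhx1 (0.208), Cyp26a1 (0.200), Snai1 (0.185) and the Wnt target Sp5 (0.159) were highest. Rab14 (-0.137) and Itgb1 (-0.133) were lowest. Fn1 and Mixl1 were at 0.01 there, so their relation to Mesp1 lay between cells with few and with many UMIs and not among the rich cells.

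PHD2-KO cells without a Mesp1 UMI still differed from WT cells. T was at 326 CPM in those PHD2-KO cells against 5.86 CPM in WT, Mixl1 at 44.0 CPM against 0.948 CPM, Lhx1 at 6.48 CPM against 0.203 CPM, and Utf1 at 123 CPM against 424 CPM.

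Among WT cells, 65 had 1 Mesp1 UMI, 2 had 2, and 1 had 12 before thinning. The cell with 12 (253 CPM of its 47338 UMIs, in cluster 7) had 5 UMIs of Eomes, 4 of Cyp26a1, 3 of Gsc, 2 of T, 1 of Mixl1 and 1 of Mesp2, and none of Lhx1, Gata6 or Snai1. Cyp26a1 and Gsc thus stood at 84.5 and 63.4 CPM in it, against 0.159 and 0.417 CPM over all WT cells. Its doublet score was at the 35.6th percentile of WT cells, and its barcode was not among those of the PHD2-KO library. The 67 cells with 1 or 2 UMIs had T at 3.04 CPM against 5.86 CPM over all WT cells. They had Utf1 at 412 CPM against 424 CPM, Vim at 81.0 CPM against 87.3 CPM, and 0 UMIs of Cyp26a1. Eomes was higher in these 67 cells, at 20.7 CPM (41 UMIs) against 12.02 CPM, as was Fgf8, at 49.6 CPM against 39.8 CPM. Gsc (2 UMIs), Lhx1 (1 UMI) and Cdh11 (3 UMIs) were also higher there, but on few UMIs. Without the cell of 12 the WT level of Mesp1 was 0.343 CPM (69 UMIs). These genes and this cell were chosen after their values were seen.

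Around the gene, Mesp2 (ENSMUSG00000030543, chr7:79810727-79813439, plus strand, 16.9 kb away) was the neighbour that differed most, at 3.52 CPM in PHD2-KO cells (556 UMIs), against 0.829 CPM in WT cells (167 UMIs). The Mesp1 and Mesp2 transcripts of 1275 and 1944 bases share a longest exact run of 42 bases, and the sources used here do not say how reads within it were counted, so low Mesp2 counts in Mesp1-rich cells are uncertain. Anpep, an aminopeptidase gene on the far side of Mesp2, was at 3.95 CPM in cells with 21 or more Mesp1 UMIs (20 UMIs), against 0.712 CPM in cells with 0 (42 UMIs). The peroxisomal gene Pex11a was at 9.08 CPM against 6.12 CPM, the adaptor gene Ap3s2 at 38.9 CPM against 29.4 CPM, and Wdr93 at 0.789 CPM against 0.695 CPM. Between the libraries, Pex11a was at 6.50 CPM in PHD2-KO and 5.27 CPM in WT cells and Ap3s2 at 31.1 CPM in PHD2-KO and 32.7 CPM in WT cells.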

How the data were processed

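For each library the authors deposited raw UMI counts, whole numbers for every gene and barcode. Per the file headers, Cell Ranger 4.0.0 made them. The submitters' processing notes name the mm10 build, Cell Ranger and Seurat. The 10x kit, the end of the transcript it reads and the handling of shared reads were not given in the sources used here. In all there were 7713 PHD2-KO barcodes with 173470962 UMIs and 9651 WT barcodes with 226179474 UMIs. Protein sequences were not used here.

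Cells with at least 1000 genes and at most 10% mitochondrial UMIs were kept. Scrublet, run through scanpy 1.11.5, marked 0 cells at its automatic threshold in either library, so the highest scores were removed at 0.8% per 1000 barcodes (456 PHD2-KO and 712 WT cells). Of the removed PHD2-KO cells 19.3% had 11 or more Mesp1 UMIs, against 11.5% of kept cells, at median depths of 33553 and 20999 UMIs.

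With 1 library per group no test was possible. Levels have exact Poisson intervals, ratios exact conditional binomial intervals and shares exact Clopper-Pearson intervals (95%). UMIs without replicate cultures give counting error only. For bins, shares and Spearman correlations every cell was thinned to 14000 UMIs. A gene was measured at 5 CPM in the higher bin, and called at a 1.5-fold ratio of CPM; log2 ratios add a pseudocount of 1 CPM. Clusters used Leiden (resolution 1, 2000 variable genes, 30 components, 15 neighbours) without Mesp1, Egln1, HIF targets, Xist, Y-linked, ribosomal protein and mitochondrially encoded genes, and a name needed at least 3 markers at 10 CPM and over 2-fold above other cells, 1 of them among the 10 leading genes.

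The gene, the lists, the markers and the naming rule were chosen with earlier results of these data known. Genes are named as the 10 highest and 10 lowest by correlation (10 CPM or more) and by ratio (50 CPM or more; predicted, ribosomal protein and mitochondrially encoded genes aside), as list members, and as neighbours of Mesp1, and 1 gene so chosen is not reported here. Cluster-leading genes, the genes ranked among Mesp1-rich cells and those of high variance were named after their values were seen. The summaries at 3, 6 and 11 UMIs, the split of the chromosome 8 share at the valley of its histogram (5.95% in PHD2-KO, 6.05% in WT), and the genes shown in figures or for single cells were chosen after values were seen. The calculations were tested on simulated counts. Promoter sequences and windows are from RefSeq, GRCm38.p6.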

Additional observations from a re-analysis of the deposited data

How the results depend on the processing

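Over 8 results and 61 alternatives, 42 values moved by less than their counting interval or, for counts of genes, by less than 1.5 times. The other 19 moved further. The ratio of PHD2-KO to WT, the result that has a direction, lay between 348 and 644 and so stayed higher in PHD2-KO. Levels, shares and counts have no direction that could change. Without limits on cells, and likewise with doublets kept, the richest 10% of PHD2-KO cells held 82.8% of Mesp1 UMIs in place of 83.7%. Thinning to 8000 UMIs gave 84.8% for that share, Mesp1 in 25.7% of PHD2-KO and 0.252% of WT cells in place of 32.9% and 0.517%, and 2495 genes past 1.5-fold (707 higher, 1788 lower) in place of 1593. In cells of low chromosome 8 share the levels were 335 CPM in PHD2-KO and 0.684 CPM in WT, the shares of cells 41.0% and 0.710%, and the richest 10% held 69.0%. In cells of high share the PHD2-KO level was 121 CPM, the ratio to WT 348, the PHD2-KO share of cells 26.2%, and the richest 10% held 90.7%. The count of genes was 562 (170 higher, 392 lower) with a pseudocount of 10 CPM, 9110 (1757 and 7353) with no minimum, which adds genes of a few UMIs, and 218 (79 and 139) at a minimum of 50 CPM, which also kept 4 of the 10 genes most like Mesp1, since fewer genes pass it. The cause of the other shifts was not tested. Median-of-ratios size factors gave a ratio of 462, and the ratio without the WT cell of most Mesp1 UMIs, an alternative chosen after seeing the data, was 644. No paired analysis was possible because each group is 1 library, and for the same reason no replicate could be left out. Depth limits what can be said of WT, where 81 UMIs carry the level, and of genes near 5 CPM in the 362 richest cells.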
